A study of Mus musculus with 4 samples.

Results

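The Spata and Tex families are collections of mouse genes named for their place of expression, spermatogenesis associated and testis expressed, and not for a shared sequence. The genes described here were those whose symbol began with Spata or Tex followed by a number, less 7 symbols set aside by rule (Spata6, Spata16, Spata19, Spata22, Tex11, Tex12 and Tex15). This gave 30 genes of 22552 symbols in the tables, 14 of them Spata and 16 Tex genes. The rule read only the symbols. Genes of these families that the tables carry under clone names were not included.

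RNA was sequenced from Hoechst-stained haploid cells, labelled round spermatids, that were sorted from the testes of male mice aged 23 days. There were 2 libraries from Sox30 knockout mice (KO) and 2 from wild-type mice (WT). Sox30 encodes a transcription factor of the SOX family, and the study asked which genes of round spermatids depend on it. The strain label was of the form DBA/C57/ICR in every library, with the number after the C differing from library to library (DBA/C58/ICR and DBA/C60/ICR in KO, DBA/C57/ICR and DBA/C59/ICR in WT). These numbers run consecutively over the 4 samples, and whether they mark a difference in strain is unknown. The labels say neither which part of Sox30 was removed nor whether the libraries of a genotype came from separate or pooled animals, and the p-values given here therefore rest on the variation from library to library, part of which may be technical.

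Spermatogenesis leads from dividing spermatogonia through meiotic spermatocytes to haploid spermatids, which then form an acrosome, a tail and a condensed nucleus. Round spermatids transcribe much of what later stages will use, and store many of these messages. Proteins named Spata or Tex act at all of these steps. Tex14 keeps open the intercellular bridges that join dividing germ cells, Tex101 is a surface protein of germ cells needed for sperm to migrate in the female tract, and others such as Tex264 and Tex10 work in cells of every tissue.

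Levels were given as FPKM, fragments per kilobase of transcript and scaled to the mapped fragments of the library. Absolute depth is unknown, and relative depth, taken from the spacing of low values, was 1.24 and 1.17 in KO and 1.39 in WT library 2, taking WT library 1 as 1. Sox30 stood at 1.46 and 3.16 FPKM in KO, against 11.4 and 16.2 FPKM in WT (limma adjusted p = 0.0219). The 8 round spermatid markers summed to 4530 and 3898 FPKM in KO, against 4893 and 4290 FPKM in WT, with none at 0 in any library. Most of that sum was Dkkl1, at 3336 and 3083 FPKM in KO against 2390 and 2089 FPKM in WT, and without it the other 7 summed to 1194 and 814 FPKM in KO, against 2503 and 2201 FPKM in WT. Of the 8 markers 4 were lower in KO at a limma adjusted p under 0.05 (Acrv1, Spaca1, Spaca7 and Izumo1) and 0 were higher. The 4 late spermatid markers, the protamines and transition proteins, summed to 37.2 and 2.56 FPKM in KO, against 10443 and 5976 FPKM in WT. RNA of some other testis cells also differed by genotype, while the sums of the Sertoli cell and macrophage markers overlapped between genotypes. The 5 blood markers summed to 8.51 and 0.178 FPKM in KO, against 248 and 148 FPKM in WT. Zeros were more frequent in KO throughout. Of all 22552 symbols, 9329 and 11112 were at 0 in the KO libraries, against 6414 and 5915 in the WT libraries. Of 6 Leydig cell markers, 4 and 5 were listed at 0 in the KO libraries, against 0 and 1 in the WT libraries, where the sums were 60.2 and 36.8 FPKM. The 7 spermatogonia markers summed to 5.78 and 3.28 FPKM in KO (5 and 6 at 0) and to 31.1 and 35.0 FPKM in WT (none at 0). The 8 spermatocyte markers summed to 192 and 225 FPKM in KO and to 330 and 281 FPKM in WT. Most of that sum was Sycp3, at 143 and 172 FPKM in KO against 217 and 177 FPKM in WT. Each of the 8 had a lower mean in KO, and only Rec8 passed. Rec8 was at 1.01 and 0.0899 FPKM in KO, against 7.14 and 10.4 FPKM in WT (limma adjusted p = 0.0120). The 5 Sertoli cell markers found summed to 19.4 and 22.6 FPKM in KO (2 at 0 in each library) and to 18.1 and 50.6 FPKM in WT, with Amh at 0 throughout. The 3 peritubular markers summed to 1.34 and 2.23 FPKM in KO (1 and 2 at 0) against 8.56 and 7.07 FPKM in WT, and the 4 macrophage markers found summed to 1.54 and 0.283 FPKM in KO (2 and 3 at 0) against 0.322 and 1.21 FPKM in WT (1 at 0 in each). The part that these other cells play in any result below was not tested. In bulk RNA of this kind fewer cells of a type and less RNA per cell cannot be told apart.

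Of the Spata and Tex genes, 7 fell in KO, among them Spata3 and Spata9 to under 1% of the WT mean, while Spata4 and Spata24, the most abundant of the 30, did not. Of the 30 genes, 25 had a mean of at least 1 FPKM over the 4 libraries and were tested, and the other 5 were too low in every library. Among those tested 7 were lower in KO and 0 were higher at a limma adjusted p under 0.05, or 28% lower, beside 13.4% lower and 1.95% higher among all 9124 genes tested. At an unadjusted p under 0.05, 14 were lower and 2 were higher, beside 23.0% lower and 8.30% higher among all genes tested. A gene that is high in only one genotype can pass the filter on level through that genotype, so these shares describe the tested genes and not the families. The median log2 change, KO minus WT on the log2(FPKM + 1) scale used for every change given here, was -0.87 over the 25 genes and -0.23 over all genes tested. After quantile normalization these medians were -0.55 and 0.17, and after a correction for transcript GC content -0.45 and 0.014. Without WT library 1, and likewise without WT library 2, 0 of the genes passed, beside 386 and 0 of all genes lower and 0 higher in each case. At an unadjusted p under 0.05, 6 were lower in each of these fits, beside 14.6% and 12.9% of all genes tested. Without KO library 1, 15 were lower and 0 higher, beside 33.7% lower and 10.8% higher among all genes tested. Without KO library 2, 9 were lower and 1 was higher, beside 20.2% lower and 9.84% higher among all genes tested. All 7 called genes were among those called in both fits that left out a KO library.

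**Figure D1:**
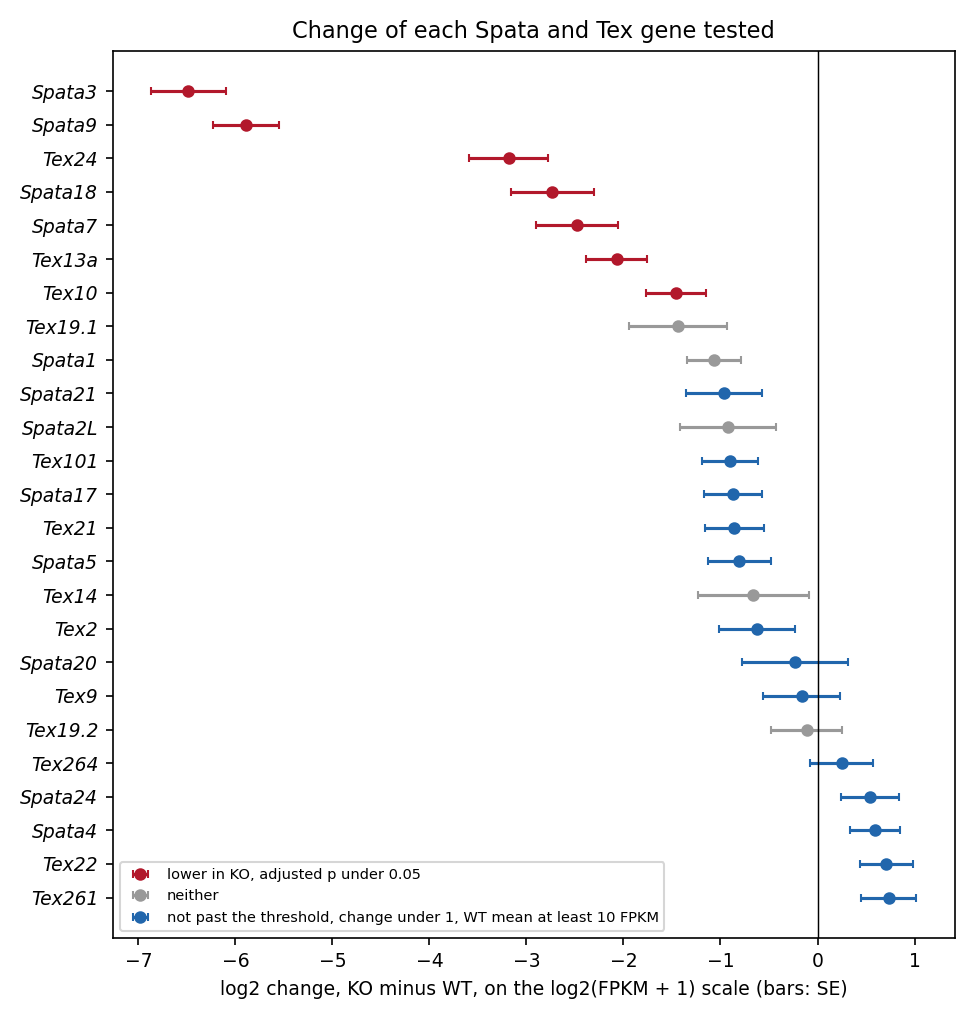
Log2 change, KO minus WT, of each of the 25 Spata and Tex genes tested, with the standard error of the limma fit as the bar (2 libraries per genotype). The 7 genes in red, at changes between -6.49 and -1.46, passed the adjusted threshold; 13 genes in blue had a WT mean of at least 10 FPKM and a change under 1 in size; the 5 in grey were neither.

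Spata3 and Spata9 showed the deepest falls. Spata3, a testis gene that has been little studied, stood at 0.415 and 0.110 FPKM in KO, against 139 and 88.9 FPKM in WT. The KO mean was 0.230% of the WT mean. The groups did not come near each other, and Spata3 ranked 9943 and 10191 among the 22552 symbols in the KO libraries, against 795 and 1103 in the WT libraries. The log2 change was -6.49 (SE 0.39, limma adjusted p = 5.15e-04). Spata9 stood at 1.08 and 1.70 FPKM in KO, against 159 and 123 FPKM in WT. Its KO mean was 0.985% of the WT mean, and the log2 change was -5.89 (SE 0.34, limma adjusted p = 4.80e-04). Without either WT library the size of both changes held, from -6.81 to -6.16 for Spata3 and from -6.08 to -5.71 for Spata9, but neither passed (limma adjusted p from 0.0637 to 0.0743).

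Promoter windows of 4 of the called genes and of Spata4, an abundant gene that did not fall, are shown as examples, and not as a comparison of lost and kept genes. The sequences are from RefSeq on build GRCm38.p6 (the authors' files used mm9), run from 250 bases before to 50 bases after the annotated start, 5′ to 3′ on the gene's strand, and carry in capitals every match to ACAAT, the core bound by SOX proteins, or TGACG, the core of the cAMP response element (CRE), on either strand (ATTGT and CGTCA on the other).
Spata3, chr1:86021695-86021994 (+ strand): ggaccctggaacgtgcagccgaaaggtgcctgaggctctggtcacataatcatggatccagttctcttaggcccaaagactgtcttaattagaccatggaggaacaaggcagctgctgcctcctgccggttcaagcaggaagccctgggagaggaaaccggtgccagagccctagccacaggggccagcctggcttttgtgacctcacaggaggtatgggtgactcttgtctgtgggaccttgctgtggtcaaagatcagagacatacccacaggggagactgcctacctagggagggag
Spata9, chr13:75967489-75967788 (+ strand): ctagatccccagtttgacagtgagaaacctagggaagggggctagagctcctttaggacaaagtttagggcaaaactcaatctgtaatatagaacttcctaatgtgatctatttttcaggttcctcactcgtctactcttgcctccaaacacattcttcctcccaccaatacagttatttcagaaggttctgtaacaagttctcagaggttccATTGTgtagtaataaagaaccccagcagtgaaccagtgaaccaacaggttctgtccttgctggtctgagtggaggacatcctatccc
Spata18, chr5:73651130-73651429 (+ strand): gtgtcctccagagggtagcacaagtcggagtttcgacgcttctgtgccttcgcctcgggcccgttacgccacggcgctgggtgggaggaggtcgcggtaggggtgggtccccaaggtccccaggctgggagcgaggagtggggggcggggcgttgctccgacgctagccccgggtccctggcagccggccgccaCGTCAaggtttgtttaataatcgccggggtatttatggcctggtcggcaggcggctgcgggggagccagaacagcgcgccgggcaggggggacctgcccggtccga
Spata7, chr12:98627892-98628191 (+ strand): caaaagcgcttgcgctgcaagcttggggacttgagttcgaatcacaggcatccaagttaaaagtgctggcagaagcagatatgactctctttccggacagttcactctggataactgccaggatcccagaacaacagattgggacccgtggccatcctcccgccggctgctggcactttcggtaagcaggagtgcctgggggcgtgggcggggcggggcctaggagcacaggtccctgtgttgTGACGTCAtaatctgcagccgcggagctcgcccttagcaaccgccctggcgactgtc
Spata4, chr8:54600531-54600830 (+ strand): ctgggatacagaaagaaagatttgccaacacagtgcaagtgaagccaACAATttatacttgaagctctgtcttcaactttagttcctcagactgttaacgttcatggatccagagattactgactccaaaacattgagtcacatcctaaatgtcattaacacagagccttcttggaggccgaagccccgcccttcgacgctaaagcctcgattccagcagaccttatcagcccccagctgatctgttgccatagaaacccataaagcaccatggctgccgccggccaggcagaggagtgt
Counting from the start site as 0, Spata9 had 1 SOX core at -37 to -33, and Spata4 had 1 at -203 to -199. Spata18 had 1 CRE core at -56 to -52. The 2 CRE cores of Spata7, at -7 to -3 and -4 to 0, overlapped in a single palindrome. The Spata3 window, from the gene with the deepest fall, held neither core. The window of Tex10, also a called gene but not shown, held neither core. Spata4 was the only kept gene, as defined below, whose window held a SOX core.

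Spata18 and Spata7 fell by less, with transcript remaining in both KO libraries. Spata18 (Mieap) is induced by p53 and acts in the quality control of mitochondria. It stood at 11.1 and 5.16 FPKM in KO, against 63.4 and 50.2 FPKM in WT, and its KO mean was 14.3% of the WT mean. Spata7 is a ciliary protein best known from the connecting cilium of photoreceptors, and its human counterpart is mutated in inherited retinal disease. It stood at 13.0 and 5.91 FPKM in KO, against 53.7 and 53.9 FPKM in WT, so its KO mean was 17.6% of the WT mean. The log2 changes were -2.73 (SE 0.42, limma adjusted p = 0.00955) for Spata18 and -2.48 (SE 0.42, limma adjusted p = 0.0132) for Spata7. In both genes KO library 1 was the higher of the KO libraries, and both KO values lay under both WT values. The call on Spata7 ended when genes of any level were tested (limma adjusted p = 0.0536), and both calls ended without either WT library (limma adjusted p from 0.290 to 0.343).

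Tex24 and Tex13a were lower-level genes that also fell. Tex24 stood at 1.48 and 0.535 FPKM in KO, against 15.0 and 18.7 FPKM in WT, so the log2 change was -3.18 (SE 0.41, limma adjusted p = 0.00446). Tex13a, on the X chromosome, was listed at 0 and at 0.153 FPKM in KO, against 3.27 and 3.76 FPKM in WT. Its log2 change of -2.07 (SE 0.32, limma adjusted p = 0.00908) understates the fall, as the scale does for low genes, and with a pseudocount of 0.1 it was -4.50. Both genes lay near the floor in KO and apart from the WT values. Neither call held without either WT library (limma adjusted p from 0.0711 to 0.220).

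Tex10, a subunit with Pelp1 and Wdr18 of a nuclear complex that works in ribosome formation, was the mildest of the falls. It stood at 14.5 and 12.6 FPKM in KO, against 35.6 and 42.5 FPKM in WT, and its KO mean was 34.8% of the WT mean. The log2 change was -1.46 (SE 0.31, limma adjusted p = 0.0294). The call ended with quantile normalization (-1.08, limma adjusted p = 0.0588), with the GC correction (-0.95, limma adjusted p = 0.0964) and without either WT library (0.253 and 0.309), and held with median-ratio scaling (0.0384). Tex10 overlaps exons of Invs on the opposite strand. No source used here states whether counting took account of strand, so reads of such overlapping genes cannot be told apart.

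**Figure D2:**
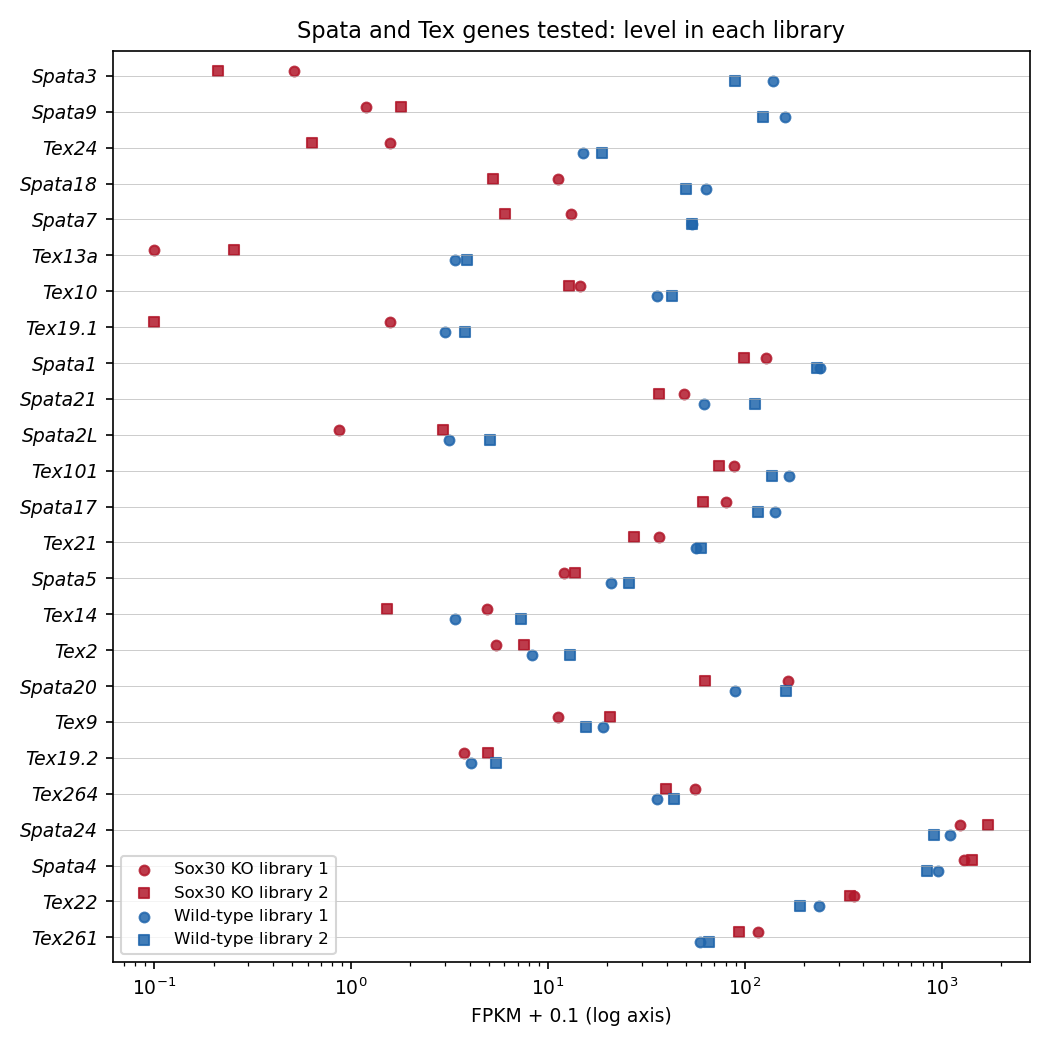
Level of the 25 tested genes in each library, as FPKM + 0.1 on a log axis, with KO libraries in red and WT libraries in blue and circles and squares for library 1 and 2. Genes are in order of their log2 change; red and blue points lie far apart for Spata3 and Spata9 and overlap for Spata20, Tex9, Tex19.2, Tex14 and Tex264.

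Spata1 came next among the well-expressed genes. It stood at 128 and 98.8 FPKM in KO, against 241 and 232 FPKM in WT, with a log2 change of -1.07 and an SE of 0.28 (limma adjusted p = 0.0579). The KO mean of 47.9% of the WT mean came with no overlap between the genotypes, just outside the threshold. It passed with quantile normalization (limma adjusted p = 0.0261) and among genes with a mean of at least 5 FPKM (0.0435), and without KO library 1 (0.00168) or KO library 2 (0.0485). It did not pass with median-ratio scaling (limma adjusted p = 0.136), without either WT library (0.357 and 0.367) or with the GC correction, which left a log2 change of -0.38 (0.542). It overlaps exons of Ctbs on the opposite strand.

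Tex19.1, whose product restrains retrotransposons in germ cells and placenta, and Tex19.2 are neighbouring copies on chromosome 11, and reads may be shared between them. Tex19.1 was at 1.47 and 0 FPKM in KO, against 2.89 and 3.67 FPKM in WT (log2 change -1.44, SE 0.50, limma adjusted p = 0.118). Tex19.2 was at 3.62 and 4.85 FPKM in KO, against 3.98 and 5.34 FPKM in WT (log2 change -0.11, limma adjusted p = 0.865). The genotypes overlapped for Tex19.2 and not for Tex19.1, and the difference between the copies was not tested. Tex14, of the intercellular bridge, was at 4.79 and 1.42 FPKM in KO, against 3.28 and 7.18 FPKM in WT, with each genotype spanning a wide range. Spata2L, a relative of Spata2, was at 0.762 and 2.82 FPKM in KO, against 3.05 and 4.99 FPKM in WT (limma adjusted p = 0.256). None of these 4 passed.

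A set of 6 genes with a WT mean of at least 10 FPKM was lower in both KO libraries than in either WT library. Their changes were under 1 in size on the log2 scale, and none passed. Tex101, linked by a lipid anchor to the germ cell surface and needed for Adam3 to mature, stood at 88.0 and 73.8 FPKM in KO, against 167 and 137 FPKM in WT (log2 change -0.90, SE 0.29, limma adjusted p = 0.0960). Spata17, a calmodulin-binding protein, stood at 80.3 and 61.2 FPKM in KO, against 143 and 117 FPKM in WT (limma adjusted p = 0.114). Tex21 stood at 36.4 and 27.3 FPKM in KO, against 56.3 and 59.6 FPKM in WT (limma adjusted p = 0.123). In these 3 genes the KO mean was between 53.3% and 55.0% of the WT mean. Spata21, with EF-hand domains that bind calcium, stood at 48.9 and 36.5 FPKM in KO, against 61.9 and 112 FPKM in WT (limma adjusted p = 0.157). Spata5, an AAA-type ATPase of ribosome maturation, stood at 12 and 13.7 FPKM in KO, against 20.8 and 25.7 FPKM in WT (limma adjusted p = 0.155). Tex2, a lipid transfer protein of the endoplasmic reticulum, stood at 5.35 and 7.42 FPKM in KO, against 8.16 and 12.9 FPKM in WT (limma adjusted p = 0.326). Spata5 overlaps exons of Nudt6 on the opposite strand. Over the 25 tested genes, 16 (64.0%) had both KO values below both WT values, where 38.6% of all genes tested did. Without KO library 1, Tex101, Spata17, Tex21 and Spata21 passed (limma adjusted p from 0.00238 to 0.00966), and Spata21 also passed with the GC correction (0.0436).

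In 3 genes the genotypes overlapped and the direction did not hold in every setting tried. Of 15 alternative settings, the sign held in 13 for Spata20, 14 for Tex264 and 11 for Tex9. Spata20, a thioredoxin-like protein, stood at 165 and 62.7 FPKM in KO, against 89.0 and 161 FPKM in WT (log2 change -0.23, SE 0.54, limma adjusted p = 0.805). The libraries of each genotype differed by more than the genotypes did. Tex9 stood at 11.2 and 20.5 FPKM in KO, against 18.9 and 15.5 FPKM in WT (limma adjusted p = 0.814), and it overlaps exons of Mns1 on the opposite strand. Tex264, a receptor that hands endoplasmic reticulum to autophagy, stood at 55.5 and 39.6 FPKM in KO, against 35.6 and 43.3 FPKM in WT (log2 change 0.25, SE 0.32, limma adjusted p = 0.633).

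The 4 remaining genes were higher in both KO libraries than in either WT library, and none passed. They included the 2 most abundant members. Spata24, which binds the TATA-binding protein and its relatives, stood at 1234 and 1717 FPKM in KO, against 1099 and 911 FPKM in WT (log2 change 0.54, SE 0.30, limma adjusted p = 0.267). Spata4, a testis protein with a calponin homology domain, stood at 1289 and 1428 FPKM in KO, against 957 and 844 FPKM in WT (log2 change 0.59, SE 0.26, limma adjusted p = 0.181). Spata24 ranked 85 and 73 among the symbols of the KO libraries, against 79 and 79 in the WT libraries, and Spata4 ranked 75 and 95 in KO, against 91 and 90 in WT. Their place among the most abundant transcripts was thus nearly the same in both genotypes. Tex22 stood at 358 and 341 FPKM in KO, against 239 and 190 FPKM in WT (log2 change 0.71, SE 0.27, limma adjusted p = 0.144). Tex261, a relative of a yeast receptor for export from the endoplasmic reticulum, stood at 116 and 93.0 FPKM in KO, against 59.1 and 65.3 FPKM in WT (log2 change 0.73, SE 0.29, limma adjusted p = 0.150). Without KO library 2 Tex261 passed (0.89, limma adjusted p = 0.0369).

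Abundant genes as a class moved the same way. Of all 227 genes with a mean of at least 500 FPKM over the libraries, 70.5% had both KO values above both WT values and the median log2 change was 0.63, so the values of Spata24 and Spata4 lay near that of genes of like level. Between 100 and 500 FPKM, the class of Tex22, the share was 43.6% and the median 0.23 over 791 genes. Between 50 and 100 FPKM, the class of Tex261, the share was 31.5% and the median 0.012 over 606 genes. In that class 32.2% had both KO values below both WT values. The share above was 22.2% over all genes tested, beside 4 of 25 (16.0%) here. The size of the changes of Spata24 and Spata4 moved with the scaling and the libraries used, with log2 changes between 0.01 and 0.78 for Spata24 and between 0.09 and 1.19 for Spata4 over the settings tried, and all of these were positive. Spata24 shares exon sequence with Mzb1 on the same strand, and Spata4 overlaps 5330439A09Rik on the opposite strand.

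**Figure D3:**
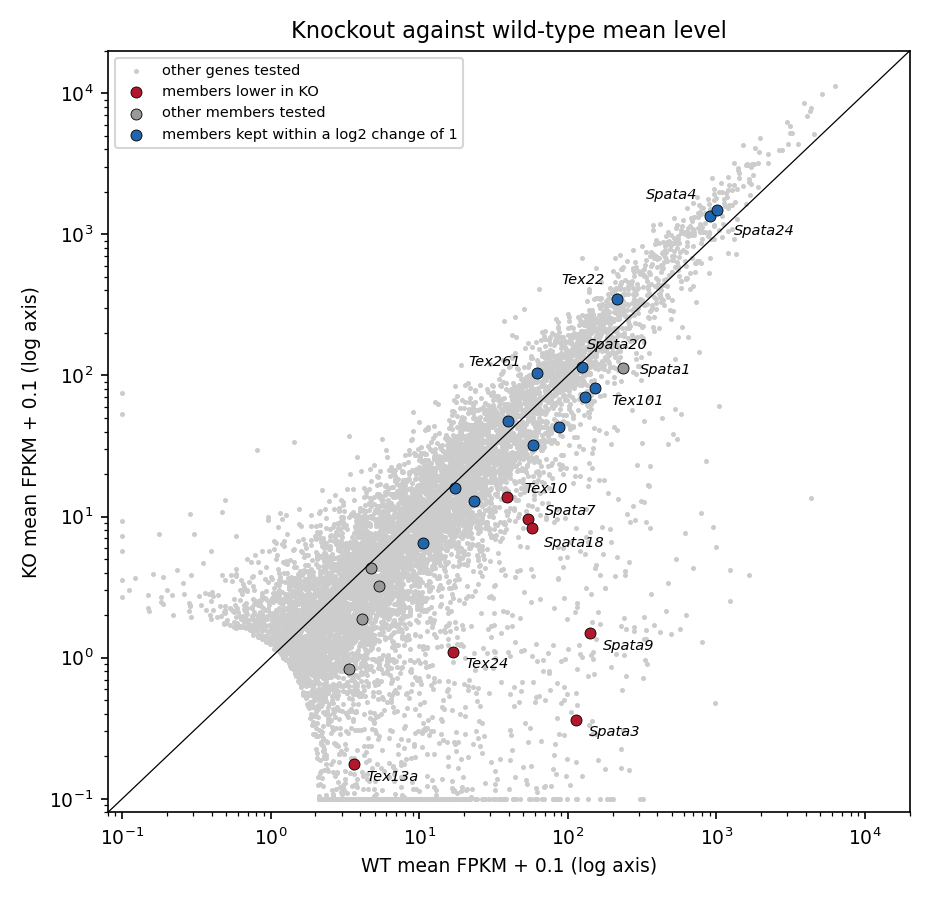
KO mean against WT mean of each of the 9124 genes tested, in FPKM + 0.1 on log axes, with the 25 Spata and Tex genes in colour; the line marks equal means. Spata4, Spata24, Tex22 and Tex261 lie above the line, and Spata3 and Spata9 lie far below it.

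The summed level of the families depended on the scale. The 30 genes summed to 3680 and 4056 FPKM in KO, against 3680 and 3331 FPKM in WT, where KO library 1 and WT library 1 were level. They made up 0.616% and 0.602% of all FPKM in KO, against 0.648% and 0.665% in WT, and on this scale both KO libraries were lower. Of the families' FPKM, the 7 fallen genes held 1.13% and 0.646% in KO, against 12.8% and 11.4% in WT. These 7 were chosen for lower values in these same libraries. Their smaller share in KO, and the larger share of the rest, therefore follows from that choice. Spata4 and Spata24 together held 68.6% and 77.5% of the families' FPKM in KO, against 55.9% and 52.7% in WT.

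**Figure D4:**
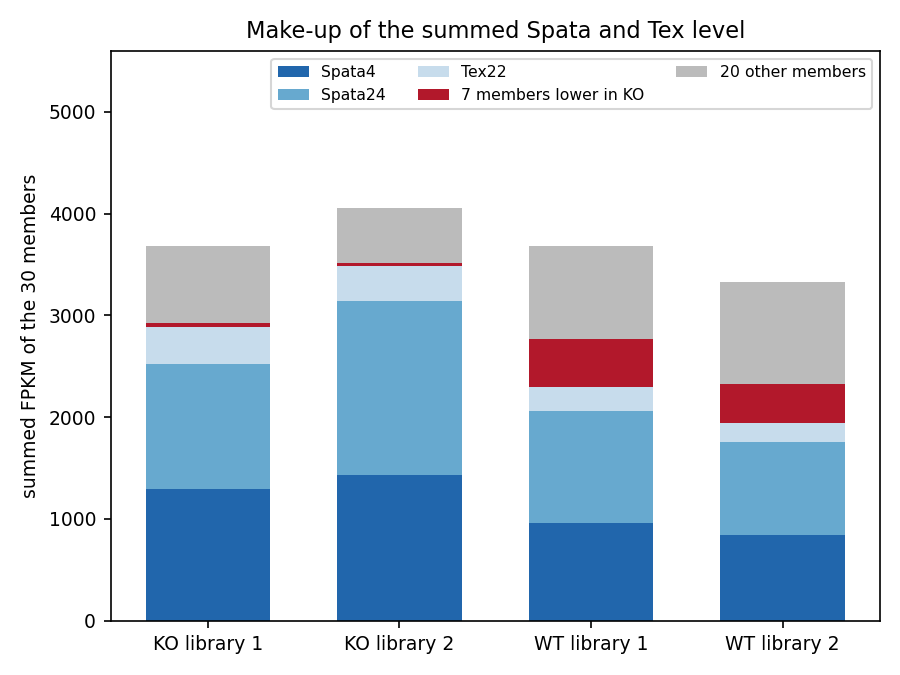
Summed FPKM of the 30 genes in each library, split into Spata4, Spata24, Tex22, the 7 genes lower in KO and the 20 others. The red part, 41.6 and 26.2 FPKM in KO, is 469 and 381 FPKM in WT, while the whole bars reach 3331 to 4056 FPKM.

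The 5 genes that were not tested, Spata2, Spata13, Tex13, Tex16 and Tex28, reached at most 0.779 FPKM in any library. Spata2, an adaptor that brings the deubiquitinase Cyld to the ubiquitin ligase Rnf31, was even across libraries, at 0.514 and 0.504 FPKM in KO and 0.471 and 0.545 FPKM in WT. Spata13 and Tex28 were listed at 0 in both KO libraries. Their WT values were 0.00866 and 0.0437 FPKM for Spata13 and 0.542 and 0.234 FPKM for Tex28. Tex13 was at 0.0817 and 0.522 FPKM in KO and 0.779 and 0.341 FPKM in WT, and Tex16 was at 0.0816 and 0 FPKM in KO and 0.135 and 0.646 FPKM in WT. Nothing can be said of a change in these genes at such levels. Of the 30 genes 4 were X-linked, namely Tex13, Tex13a, Tex16 and Tex28, and 3 of these were among the 5 at the floor.

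The fallen and the kept genes were then described side by side. Kept genes were the 13 that did not pass, had a WT mean of at least 10 FPKM and changed by under 1 on the log2 scale. Kept is a label for this rule and does not mean unchanged. In 6 of the kept genes both KO values lay below both WT values, in 4 both lay above, and in 3 the genotypes overlapped. With 2 libraries per genotype, a fall in a kept gene may have been missed. Both families were in both groups, with 4 Spata and 3 Tex genes fallen and 6 Spata and 7 Tex genes kept. Level was not compared between them, since a minimum WT mean was part of what defined a kept gene and not a fallen one. The longest annotated transcript had a median GC content of 46.9% in the fallen genes (range 37.9% to 61.2%), 51.2% in the kept genes (42.2% to 60.8%) and 49.1% in all genes tested. Its median length was 1767 bases in the fallen, 2137 bases in the kept and 2717 bases in all genes tested. The fallen genes were spread over 7 chromosomes, one each, so they were not neighbours of each other. Whether other genes near them also fell was not examined.

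Promoter windows were found for 24 of the 30 genes, 27 windows in all. The SOX core was in 1 of 5 windows of fallen genes and in 1 of 12 of kept genes, while 31.0% of all 32851 windows held it. The CRE core was in 2 of 5 windows of fallen genes and in 1 of 12 of kept genes, while 20.8% of all windows held it. Windows are few, and a match or its lack says nothing of whether a factor binds.

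**Figure D5:**
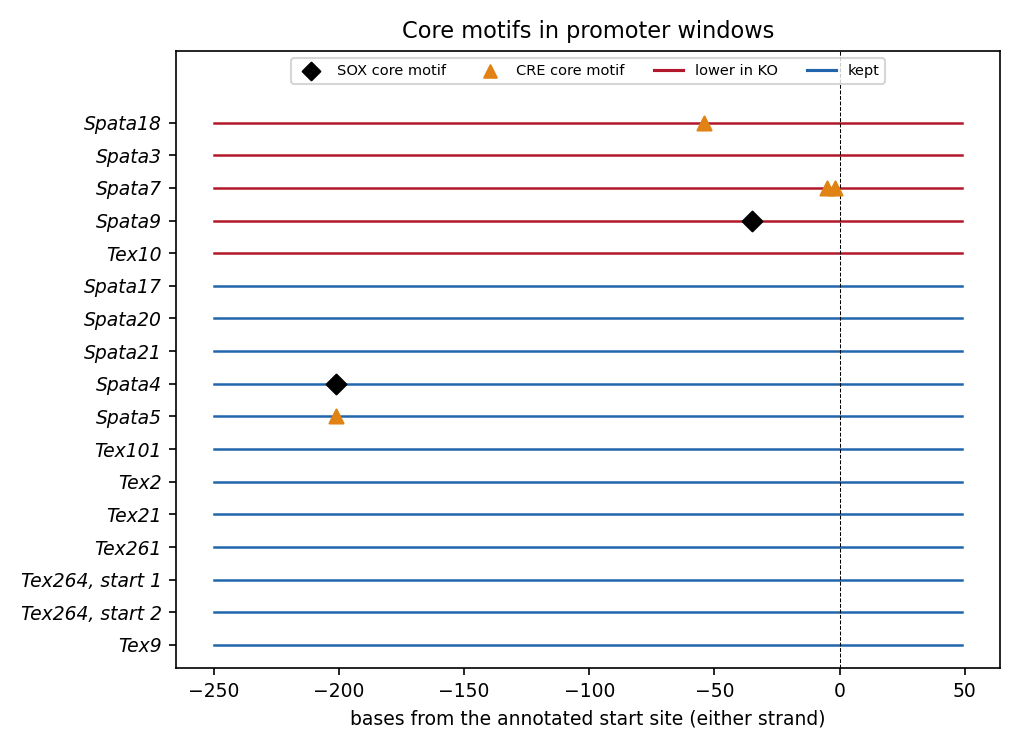
Position of each SOX core (diamonds) and CRE core (triangles) in the promoter windows of fallen (red) and kept (blue) genes, in bases from the annotated start site. Of 5 windows of fallen genes 1 holds a SOX core and 2 hold a CRE core, and of 12 windows of kept genes 1 holds each.

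Genes for known binding partners of Spata and Tex proteins were looked at as the wider setting. Of 32 listed partners 31 were in the tables and 29 were tested. Among these 5 (17.2%) were lower and 2 were higher in KO, with a median log2 change of -0.32. Among all genes tested 13.4% were lower and 1.95% higher, shares that also stand beside the counts that follow. Of 19 tested partners of proteins whose own symbols are among the 30 genes, 1 was lower and 2 were higher. That one was Rpgr, a ciliary protein of the photoreceptor like its partner Spata7, at 0.911 and 1.54 FPKM in KO, against 7.67 and 8.44 FPKM in WT (log2 change -2.04, SE 0.36, limma adjusted p = 0.0155). Rpgrip1, the other listed partner of Spata7, did not pass and its genotypes overlapped. It was at 13.8 and 21.9 FPKM in KO, against 14.3 and 14.6 FPKM in WT (limma adjusted p = 0.662). The partners higher in KO were Rnf31 and Map1lc3a. Rnf31, the ligase that Spata2 joins to Cyld, was at 3.997 and 3.86 FPKM in KO, against 0.685 and 0.812 FPKM in WT (log2 change 1.496, SE 0.33, limma adjusted p = 0.0318). Map1lc3a, which coats autophagosomes and is bound by Tex264, was at 1091 and 1112 FPKM in KO, against 583 and 487 FPKM in WT (log2 change 1.05, SE 0.26, limma adjusted p = 0.0490). Both rises sat near the threshold. Neither passed with a pseudocount of 0.1, when genes of any level were tested, or without either WT library, and Map1lc3a did not pass after median-ratio scaling or the GC correction (0.50, limma adjusted p = 0.508). The call on Rpgr ended when genes of any level were tested (0.0534) and without either WT library (0.220 and 0.246).

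Partners of Tex101 did not pass. Dpep3, a peptidase of the germ cell surface, was at 490 and 282 FPKM in KO, against 328 and 379 FPKM in WT (limma adjusted p = 0.905). Ly6k was at 123 and 190 FPKM in KO, against 188 and 151 FPKM in WT (limma adjusted p = 0.812), and Adam3, a sperm surface protein needed for sperm migration, was at 243 and 125 FPKM in KO, against 266 and 311 FPKM in WT (limma adjusted p = 0.257). For Dpep3 and Ly6k the genotypes overlapped.

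The other 4 falls were in partners of Tex38 and Tex40, whose symbols are not in the tables. Zdhhc19, an enzyme that attaches palmitate to proteins and a partner of Tex38, was at 1.68 and 0 FPKM in KO, against 94.8 and 84.7 FPKM in WT (log2 change -5.79, SE 0.53, limma adjusted p = 0.00141). Tex40, later named Catsperz, is a subunit of the sperm calcium channel. Of the channel's 7 tested subunits 3 were lower in KO, all of them pore subunits, beside 13.4% lower among all genes tested. Catsper1 was listed at 0 in both KO libraries, against 13.5 and 12.3 FPKM in WT (limma adjusted p = 0.00132). Catsper3 was at 0.0481 and 0.0512 FPKM in KO, against 82.1 and 84.9 FPKM in WT, and Catsper4 was at 0 and 0.0431 FPKM in KO, against 63.2 and 73.6 FPKM in WT (limma adjusted p = 4.80e-04 for each). The other pore subunit, Catsper2, did not pass, at 181 and 109 FPKM in KO, against 74.1 and 126 FPKM in WT (log2 change 0.53, limma adjusted p = 0.417), and the genotypes overlapped. The accessory subunits Catsperb, Catsperg1 and Catsperg2 did not pass either (limma adjusted p = 0.0582, 0.355 and 0.960). The call on Zdhhc19 ended without either WT library (0.194 and 0.200), and those on Catsper1, Catsper3 and Catsper4 ended without WT library 2 (limma adjusted p = 0.0653 for each). The calcineurin subunits Ppp3r2 and Ppp3cc, partners of Spata33, did not pass, at 285 and 353 FPKM in KO against 262 and 240 FPKM in WT for Ppp3r2 and 168 and 77.2 FPKM in KO against 180 and 195 FPKM in WT for Ppp3cc (limma adjusted p = 0.442 and 0.295).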

How the data were processed

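RNA levels were measured in 4 libraries, 2 KO and 2 WT, grouped and numbered by sample title. The authors deposited FPKM, in 1 table per library with 23021 entries. Build mm9 and the tools Cuffdiff, Cufflinks 2.0.2 and TopHat2 2.0.6 are named in the submitters' processing notes, without their role or settings. Library kit and sort are as stated per the labels' protocols (NEBNext Ultra RNA). FPKM scale each library to its own total, so a change in a few abundant transcripts moves all others. Reads were not used here, so no counting intervals are given.

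Entries of one symbol were summed (259 symbols, none a member). Where the 4 libraries averaged 1 FPKM or more, log2(FPKM + 1) was fitted on genotype alone by limma 3.58.1 under R 4.3.3, using eBayes with its trend option (residual degrees of freedom 2, prior 3.84). P-values are two-sided and Benjamini-Hochberg adjusted over all 9124 genes, threshold 0.05. Members, lists and rules were chosen with earlier results of these data known. Values are given for every member past the threshold or with a genotype mean of at least 10 FPKM, the other members being added after their values were seen, and for the called partners and the most abundant others up to 12. Those of Catsper2 and Rpgrip1 are given in addition. GC content (found for 98.6% of tested genes) and exon overlap came by symbol from GENCODE M21 and chromosomes and promoters from RefSeq (GRCm38.p6), whose build differs from that of the authors. The alternatives tried were other pseudocounts, filters, scalings, robust moderation, symbols listed once, a library-number block and leaving out each library (with the tested genes held fixed, and the lone library's spread taken from the other genotype). A lowess GC correction (span 0.3) and a crossed block were added after seeing the data.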

Additional observations from a re-analysis of the deposited data

How the results depend on the processing

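Spata3, Spata9, Spata18, Tex24 and Tex13a stayed past the threshold wherever they were tested with all 4 libraries. With 1 library left out, members lower ranged from 0 to 15 and higher from 0 to 1, all genes lower from 0 to 3071 and higher from 0 to 984, partners lower from 0 to 11 and higher from 0 to 3, and the members' median from -1.06 to -0.66.

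That median, -0.87 as reported, was -0.66 with pseudocount 5, -0.68 with median-ratio scaling, -0.55 with quantile normalization and -0.45 with the GC correction. The median of all genes turned to 0.17 with quantile normalization and 0.014 with the GC correction. All genes lower numbered 787 at a mean of at least 5 FPKM, against 1221 as reported, and fewer genes were tested there. All genes higher, 178 as reported, numbered 113 with pseudocount 0.1, 62 with no filter, 283 with median-ratio scaling, 608 with quantile normalization and 326 with the GC correction. Partners higher, 2 as reported, numbered 0 with pseudocount 0.1 or no filter, and 1 with a mean of at least 5 FPKM, median-ratio scaling or the GC correction.

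Directions turned for Tex264 (-0.19 with the GC correction), Tex9 (0.021 with median-ratio scaling, 0.26 with quantile normalization and 0.39 with the GC correction), Dpep3 (-0.073 with quantile normalization and -0.079 with the GC correction) and Ly6k (0.056 with median-ratio scaling). With 1 library left out Spata20 ranged from -0.92 to 0.46, Tex9 from -0.57 to 0.25, Dpep3 from -0.32 to 0.47 and Ly6k from -0.44 to 0.17. Apart from the smaller set of genes tested, the cause was not tested.

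The labels do not say that library numbers pair the samples, and deviations of same-numbered libraries correlated at -0.20 over 9124 genes. With the library number as a replicate block, members lower numbered 6, all genes higher 82 and partners higher 0. Among named genes the calls lost were those on Tex10 (limma adjusted p = 0.0827), Rnf31 (0.0828) and Map1lc3a (0.162). A crossed block, chosen like the GC correction after seeing the data, gave 8 members lower and 390 of all genes higher.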
